A study of Mus musculus with 21 samples.

Results

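The 10 genes described here are core members of the circadian clock, measured by RNA-seq in the kidneys of 17 mice. They are Nr1d1, Nr1d2, Dbp, Tef, Per1, Per2 and Per3, which are expressed on one side of the daily cycle, and Arntl, Npas2 and Clock, the activators, of which Arntl and Npas2 peak on the opposite side. The genes were found by symbol among the gene names deposited with the data and linked by gene identifier to the counts, and all 10 were found among the 20634 genes counted in both tables used. The set was selected on a measured value, the level of Nr1d1, which was higher in Ade + IMC than in Ade kidneys, so every value of that contrast is given here as a description without a test. The levels of Nr1d1 in both adenine-fed groups entered that selection, so its differences from Con are given without a p-value as well and its place among the called genes is not independent of the selection. All 10 genes passed the filters on low counts in each comparison.

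The mice were female apoE knockout mice on a C57BL/6J background, a strain that develops hypercholesterolemia on chow. Feeding started at 4 weeks of age and lasted 14 weeks, and the kidneys were taken at 18 weeks of age after a fast. The control group (Con, 5 mice) received chow, the adenine group (Ade, 6 mice) received chow with adenine, which damages the tubules and serves as a model of chronic kidney disease, and the third group (Ade + IMC, 6 mice) received chow with adenine and iodomethylcholine. Iodomethylcholine (IMC) is an inhibitor of the bacterial enzyme that makes trimethylamine, the precursor of trimethylamine N-oxide (TMAO), and the study asked whether less TMAO changes the course of the disease. All mice, controls included, lacked apoE, and all were of 1 sex and 1 strain. The 4 Con + IMC mice in the labels were not analysed here. The hour at which each kidney was taken is not given in the sources used here, and for clock genes this hour sets the level, so that group, hour of collection and the phase of each animal cannot be told apart.

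The clock of mammalian cells is a loop of transcription and feedback. CLOCK, or its relative NPAS2, pairs with the product of Arntl (also called BMAL1) on E-box elements and switches on the Per and Cry genes, Nr1d1, Nr1d2 and the genes of the PAR bZIP factors DBP, TEF and HLF. The PER and CRY proteins then inhibit the activators, and the products of Nr1d1 and Nr1d2 (REV-ERB alpha and beta) repress Arntl and Npas2 through elements that ROR factors also bind. Transcripts of the repressor and output arm are therefore high when those of Arntl and Npas2 are low, while Clock itself cycles weakly in most tissues. In the kidney the clock is known for daily rhythms of sodium handling and urine production.

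The loop runs through short elements in control regions of clock genes, and a few promoter windows are shown for that reason. RefSeq promoter windows (build GRCm38.p6, 250 bases before to 50 bases after a start of transcription) were at hand for 9 of the 10 genes, all but Per2, in 14 windows. Both strands were searched for the E-box CACGTG, held by 7.15% of the 32851 windows of this length in the table, its variant CACGTT or AACGTG (4.68%), the nuclear receptor core AGGTCA or TGACCT (16.3%), which many receptors of this family share and which is part of the longer element that REV-ERB and ROR proteins bind, whose flank was not searched, and the D-box TTATGTAA or TTACATAA bound by PAR bZIP factors (0.938%). At least 1 of these was found in 8 of the 14 windows and in 7 of the 9 genes. The windows of Dbp and Npas2 held none of these letters, which says nothing of sites elsewhere in the genes. A match is a description of the sequence and not evidence of binding. The windows below are written 5′ to 3′ on the strand of the gene, with the matched letters in capitals.
Nr1d1, chr11:98775328-98775627, minus strand, E-box variant 28 bases before the start: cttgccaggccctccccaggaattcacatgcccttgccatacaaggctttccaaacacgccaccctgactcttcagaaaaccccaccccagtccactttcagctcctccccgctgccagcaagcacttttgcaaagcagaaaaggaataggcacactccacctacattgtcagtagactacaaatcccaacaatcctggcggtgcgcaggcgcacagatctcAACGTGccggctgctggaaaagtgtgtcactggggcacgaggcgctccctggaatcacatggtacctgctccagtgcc
Per1, chr11:69098699-69098998, plus strand, E-box 166 bases and nuclear receptor core 137 bases before the start: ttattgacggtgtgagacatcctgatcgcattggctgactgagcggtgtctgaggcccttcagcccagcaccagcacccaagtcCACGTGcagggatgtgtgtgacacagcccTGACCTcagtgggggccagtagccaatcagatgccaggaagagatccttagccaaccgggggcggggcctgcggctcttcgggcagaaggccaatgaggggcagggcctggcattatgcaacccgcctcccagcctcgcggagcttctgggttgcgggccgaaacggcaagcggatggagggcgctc
Tef, chr15:81802423-81802722, plus strand, E-box 127 bases before the start: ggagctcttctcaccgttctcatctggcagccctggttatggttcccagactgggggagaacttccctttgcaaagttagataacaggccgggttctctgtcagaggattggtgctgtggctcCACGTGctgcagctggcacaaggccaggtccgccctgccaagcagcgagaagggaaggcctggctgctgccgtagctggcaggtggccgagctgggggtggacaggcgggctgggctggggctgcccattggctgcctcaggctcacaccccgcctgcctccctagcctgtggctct
Per3, chr4:151044616-151044915, minus strand, D-boxes 205 and 158 bases before the start: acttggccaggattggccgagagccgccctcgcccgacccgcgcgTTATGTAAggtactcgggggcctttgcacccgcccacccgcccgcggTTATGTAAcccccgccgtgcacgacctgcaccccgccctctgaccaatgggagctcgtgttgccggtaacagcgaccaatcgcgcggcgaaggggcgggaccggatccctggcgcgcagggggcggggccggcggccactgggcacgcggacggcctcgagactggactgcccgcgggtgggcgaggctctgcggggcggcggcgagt
Arntl, chr7:113207261-113207560, plus strand, nuclear receptor core that begins 31 bases after the start base: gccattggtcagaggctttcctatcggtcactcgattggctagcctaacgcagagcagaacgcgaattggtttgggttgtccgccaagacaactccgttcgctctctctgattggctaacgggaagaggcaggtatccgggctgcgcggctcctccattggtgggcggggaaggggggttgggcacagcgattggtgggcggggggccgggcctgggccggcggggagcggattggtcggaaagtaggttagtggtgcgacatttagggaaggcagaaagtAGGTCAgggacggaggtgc
Of the windows not printed, Nr1d2 held a nuclear receptor core, the other Tef window an E-box, and 1 of the 3 Clock windows a nuclear receptor core.

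Levels are given as CPM (counts per 1000000 counts of the library) after scaling of all 17 libraries to one another by the TMM method. Libraries held 7716126 to 11680809 reads in Con, 5444833 to 7673215 in Ade and 5728589 to 8305968 in Ade + IMC, and each clock gene was covered by at least 48 reads in every kidney. Differences from Con were tested by edgeR's quasi-likelihood test over the whole table, and a gene was called where its p-value, adjusted by Benjamini and Hochberg over that table, was below 0.1, the threshold of the study's methods. Each mouse was sequenced as 1 library, so the p-values measure the spread between mice within a group. The labelled tissue was checked by its defining markers, and Lrp2 and Slc34a1 of the proximal tubule and Umod of the thick ascending limb were abundant in every group, with mean levels of 756 to 4824 CPM.

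Kidneys of adenine-fed mice had lower levels of the REV-ERB genes, Tef and Clock and a higher level of Per2, while Arntl, Npas2, Dbp and Per3 were not called. In Ade against Con 5 of the 10 clock genes were called, 1 higher and 4 lower. This was no more than in the table as a whole, where 67.3% of 14612 genes were called, 35.1% higher and 32.2% lower. The median log2 fold change was -0.23 over the 7 genes of the repressor and output arm and -0.09 over the 3 activators, beside 0.02 over all genes tested.

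Nr1d1, which encodes REV-ERB alpha, stood at 143, 132, 118, 110 and 117 CPM in Con mice 201, 202, 301, 302 and 403. In the 6 Ade kidneys its lowest level was 60.8, its median 76.6 and its highest 84.6 CPM. Every Ade kidney lay below every Con kidney, and Nr1d1 was 1.65-fold lower in Ade (log2 fold change -0.72, SE 0.10). Nr1d2, which encodes REV-ERB beta, stood at 142, 115, 108, 99.4 and 96.9 CPM in the same 5 Con mice. In Ade its level ran from 61.4 through a median of 67.6 to 84.1 CPM, again with no overlap (log2 fold change -0.67, SE 0.11, adjusted p = 0.000118 by edgeR). Transcripts of both nuclear receptors that repress Arntl were thus lower in each of the 6 Ade kidneys than in every Con kidney.

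Tef, a PAR bZIP factor, stood at 314, 288, 282, 210 and 285 CPM in Con. In Ade it ran from 126 through 139 to 159 CPM. The groups did not overlap, and Tef was 1.93-fold lower in Ade (log2 fold change -0.95, SE 0.10, adjusted p = 5.13e-06 by edgeR). Dbp, a PAR bZIP factor known for a wide daily swing, was not called. It stood at 49.1, 42.9, 38.9, 15.6 and 31.0 CPM in Con and ran from 22.1 through 32.8 to 49.6 CPM in Ade. The ranges overlapped almost entirely, with a log2 fold change of -0.04 (SE 0.28, adjusted p = 0.914 by edgeR), and within the Ade group 3 kidneys lay at 22.1 to 25.1 CPM and the other 3 at 40.5 to 49.6 CPM.

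Of the period genes, whose products inhibit the activators, Per2 stood at 28.5, 20.4, 19.0, 16.4 and 21.8 CPM in Con and ran from 21.2 through 27.5 to 35.3 CPM in Ade. Per2 was 1.37-fold higher in Ade (log2 fold change 0.46, SE 0.16, adjusted p = 0.0211 by edgeR), although only 2 of the 6 Ade kidneys exceeded the highest Con kidney. Per1, which responds to glucocorticoids and acute stimuli as well as to the clock, stood at 53.0, 57.6, 45.1, 29.5 and 73.2 CPM in Con and ran from 44.1 through 68.7 to 104 CPM in Ade (log2 fold change 0.42, SE 0.24, adjusted p = 0.146 by edgeR). The ranges overlapped and the gene was not called. Without Con mouse 403, Ade mouse 308 or Ade mouse 409 it was (adjusted p of 0.0577, 0.0741 and 0.0809 by edgeR). With library totals alone Per1 was called as well (log2 fold change 0.71, adjusted p = 0.0183 by edgeR). Per3 stood at 57.3, 48.8, 51.2, 27.3 and 44.7 CPM in Con and ran from 29.1 through 38.8 to 48.0 CPM in Ade (log2 fold change -0.23, SE 0.17, adjusted p = 0.274 by edgeR). Con mouse 302 decided this result, since without it Per3 was called lower (log2 fold change -0.37, adjusted p = 0.0313 by edgeR).

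Among the activators, Clock stood at 87.5, 67.1, 63.1, 96.6 and 61.0 CPM in Con and ran from 39.5 through 51.8 to 68.9 CPM in Ade. It was 1.41-fold lower in Ade (log2 fold change -0.49, SE 0.16, adjusted p = 0.0141 by edgeR), and 4 of the 6 Ade kidneys lay below all Con kidneys. With library totals alone the difference was -0.20 and Clock was not called (adjusted p = 0.232 by edgeR). Within mouse numbers of the same first digit the difference was -0.74 and -0.88 on the log2 scale for digits 2 and 3 and -0.03 for digit 4. Arntl, the partner of CLOCK, stood at 15.8, 21.5, 19.6, 26.9 and 23.3 CPM in Con and ran from 15.4 through 20.3 to 24.4 CPM in Ade, with a log2 fold change of -0.05 (SE 0.15, adjusted p = 0.774 by edgeR). Npas2 stood at 6.36, 9.82, 12.6, 19.1 and 15.9 CPM in Con and ran from 8.77 through 11.4 to 15.7 CPM in Ade, with a log2 fold change of -0.09 (SE 0.24, adjusted p = 0.775 by edgeR). For both genes the Ade and Con ranges overlapped almost entirely.

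**Figure D1:**
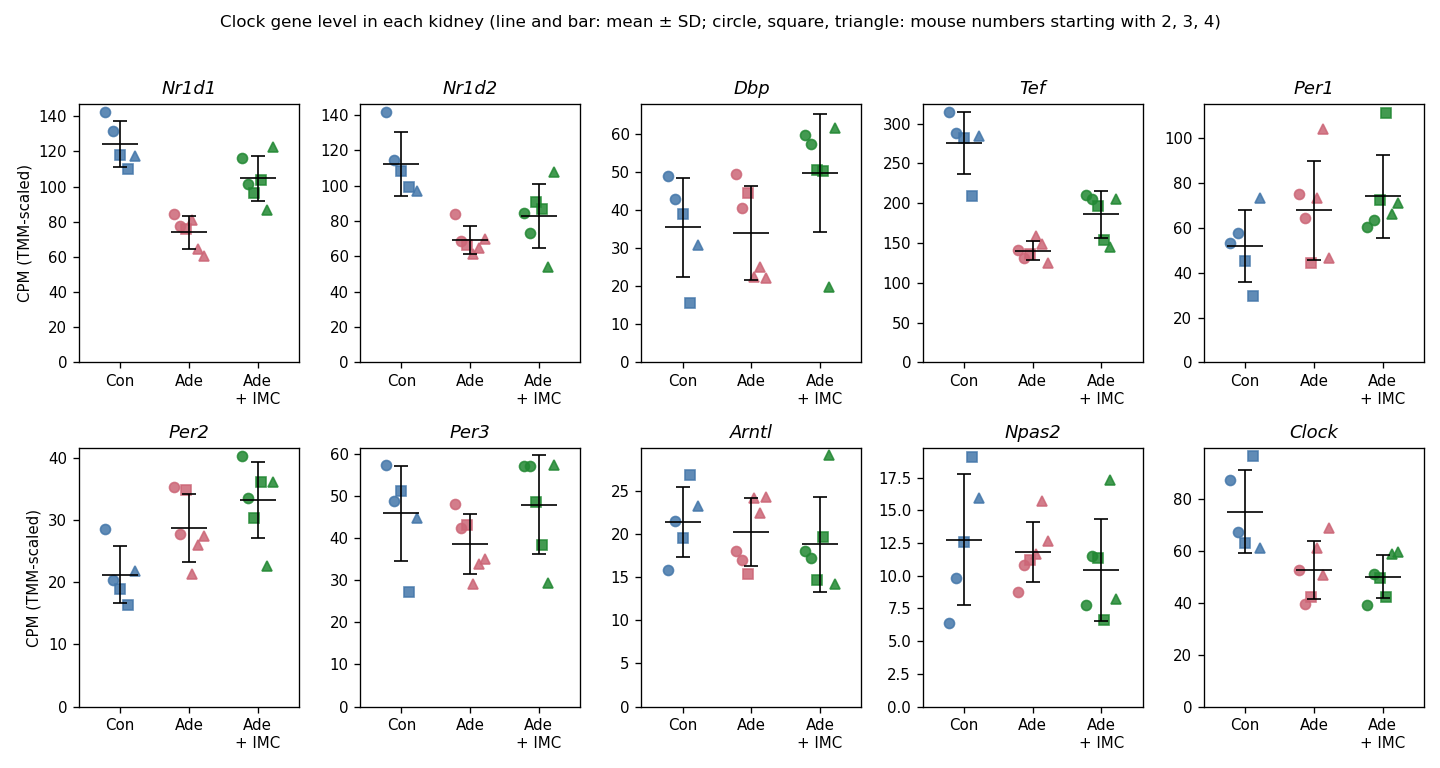
Level of each of the 10 clock genes in each kidney (y axis, CPM after TMM scaling; x axis, group). Points are kidneys, with circles, squares and triangles for mouse numbers that start with 2, 3 and 4, and lines and bars are group means ± SD; Nr1d1, Nr1d2 and Tef of every Ade kidney lie below every Con kidney, and Dbp spreads from 19.8 to 61.6 CPM within Ade + IMC.

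With IMC added to adenine, the REV-ERB genes, Tef and Clock were lower than in Con and the period genes Per1 and Per2 higher, with Nr1d1 at 0.02 on the log2 scale where library totals alone were used. In Ade + IMC against Con 6 of the 10 clock genes were called, 2 higher and 4 lower, beside 63.2% of 14578 genes in the whole table (30.9% higher and 32.3% lower). The same Con mice served as reference for both comparisons, so these are not independent results. The median log2 fold change was 0.03 over the repressor and output arm and -0.32 over the activators, beside -0.02 over all genes tested.

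Nr1d1 ran from 86.9 through 103 to 123 CPM in the 6 Ade + IMC kidneys, and 4 of them lay below all Con kidneys. It was 1.21-fold lower than in Con (log2 fold change -0.27, SE 0.10). It was called, and the call depended on the scaling, as upper-quartile scaling gave -0.19 and library totals alone gave 0.02, neither of which was called. With library totals alone the median log2 fold change of all genes stood at 0.27 in this comparison and at 0.32 in Ade against Con. Nr1d2 ran from 54.3 through 85.5 to 108 CPM (log2 fold change -0.47, SE 0.15, adjusted p = 0.0185 by edgeR) and was not called with library totals alone (-0.18, adjusted p = 0.304 by edgeR). Tef ran from 145 through 201 to 211 CPM, with 5 of 6 kidneys below all Con kidneys (log2 fold change -0.59, SE 0.13, adjusted p = 0.00135 by edgeR). Clock ran from 39.0 through 50.2 to 59.7 CPM, and all 6 kidneys lay below all Con kidneys (log2 fold change -0.62, SE 0.14, adjusted p = 0.00236 by edgeR). As in Ade, the difference of Clock from Con was -0.78 and -0.77 on the log2 scale within digits 2 and 3 and -0.04 within digit 4, where there was 1 Con mouse.

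Per2 ran from 22.6 through 34.8 to 40.3 CPM and was 1.53-fold higher than in Con (log2 fold change 0.61, SE 0.16, adjusted p = 0.00545 by edgeR), with 5 of 6 kidneys above all Con kidneys. Per1 ran from 60.5 through 68.4 to 111 CPM (log2 fold change 0.49, SE 0.21, adjusted p = 0.0606 by edgeR). Its call was lost without Con mouse 301, Con mouse 302 or Ade + IMC mouse 311 (adjusted p of 0.125, 0.137 and 0.117 by edgeR), and within first digits its difference was 0.16, 1.29 and -0.10 on the log2 scale. Dbp ran from 19.8 through 53.9 to 61.6 CPM, with 5 of 6 kidneys above all Con kidneys and mouse 410 near the bottom of the Con range (log2 fold change 0.46, SE 0.29, adjusted p = 0.196 by edgeR). Arntl ran from 14.2 through 17.6 to 29.2 CPM, with mouse 410 at the top (log2 fold change -0.21, SE 0.19, adjusted p = 0.351 by edgeR). Without mouse 410 both were called, Dbp higher (0.63, adjusted p = 0.0333 by edgeR) and Arntl lower (-0.37, adjusted p = 0.0578 by edgeR), and 8 of the 10 clock genes were. With library totals alone, and all 6 Ade + IMC kidneys in the fit, the group was called higher in Dbp than Con (0.74, adjusted p = 0.0454 by edgeR). Per3 (29.3 through 52.8 to 57.3 CPM, log2 fold change 0.03) and Npas2 (6.58 through 9.77 to 17.3 CPM, log2 fold change -0.32) were not called (adjusted p of 0.896 and 0.367 by edgeR).

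Between the adenine-fed groups, the contrast on which the genes were selected, all 7 genes of the repressor and output arm had a higher mean in Ade + IMC and all 3 activators a lower mean. For Nr1d1 the ranges did not meet, 60.8 to 84.6 CPM in Ade and 86.9 to 123 CPM in Ade + IMC, with a ratio of means of 1.41. On the deposited normalized counts the difference was 0.48 (SE 0.10, limma, log2 of normalized count + 1). Within first digits 2, 3 and 4 the difference of Nr1d1 on the log2 CPM scale was 0.42, 0.40 and 0.59. The directions of the means did not hold within every digit for Per1 (-0.16, 1.02 and -0.05), Per2 (-0.07 in digit 3), Arntl (0.01 and 0.14 in digits 2 and 3) and Clock (0.11 in digit 3). Dbp had a ratio of means of 1.47, with 5 of the 6 Ade + IMC kidneys above all Ade kidneys and mouse 410 below all of them. The ratios were 1.32 for Tef, 1.24 for Per3, 1.197 for Nr1d2, 1.15 for Per2 and 1.09 for Per1, and 0.95 for Clock, 0.93 for Arntl and 0.89 for Npas2. For these 8 genes the ranges of the groups overlapped. Since the set was selected on this contrast, these directions are no separate evidence.

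**Figure D2:**
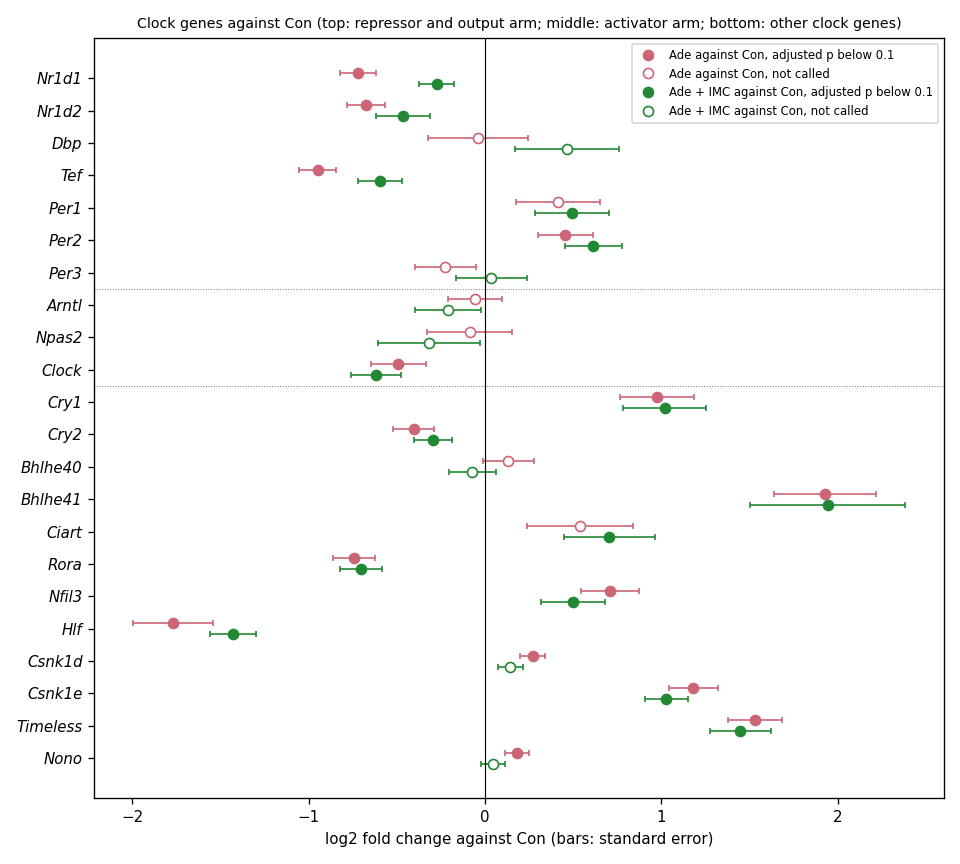
Log2 fold change against Con (x axis, bars are SE) of the 10 clock genes and 12 other clock genes (y axis) in Ade and in Ade + IMC, with filled points for genes called at an adjusted p below 0.1 by edgeR. Nr1d1, Nr1d2, Tef and Clock lie below 0 and Per2 above 0 in both comparisons, except that Nr1d1 in Ade + IMC lay at 0.02 with library totals alone, and of the other clock genes Hlf lies lowest and Bhlhe41 highest.

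Of 12 other clock genes, all tested, 7 were called higher and 3 lower in Ade against Con, where 67.3% of all genes were called, 35.1% higher and 32.2% lower. Higher were the repressor genes Cry1 (log2 fold change 0.97, SE 0.21), Bhlhe41 (1.93, SE 0.29) and Nfil3 (0.71, SE 0.17), whose product competes with PAR bZIP factors for the D-box, the casein kinase genes Csnk1d (0.27) and Csnk1e (1.18), whose products phosphorylate PER proteins, Timeless (1.53), also a replication factor, and Nono (0.18). Lower were Hlf, the third PAR bZIP gene (log2 fold change -1.77, SE 0.23, adjusted p = 2.05e-05 by edgeR), Cry2 (-0.40) and Rora (-0.74), a nuclear receptor gene whose product activates Arntl at the elements where REV-ERB proteins repress it. Hlf stood at 218, 173, 152, 192 and 204 CPM in Con, 28.7 to 88.1 CPM in Ade and 59.3 to 93.8 CPM in Ade + IMC. Both PAR bZIP genes Tef and Hlf were thus below the Con range in every Ade kidney, while Dbp was not.

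Cry1 stood at 3.03 to 5.69 CPM in Con and 5.59 to 9.81 CPM in Ade, and Cry2 at 27.3 to 36.0 and 18.5 to 28.5 CPM. The 2 cryptochrome genes therefore differed from Con in opposite directions. Bhlhe40 and Ciart were not called in Ade (log2 fold changes of 0.13 and 0.54). In Ade + IMC against Con 6 of the 12 other clock genes were higher and 3 lower, beside 30.9% and 32.3% of all genes. Ciart (0.71) was called there, and Csnk1d (0.14) and Nono (0.05) were not. The median log2 fold change of the 12 was 0.40 in Ade and 0.32 in Ade + IMC.

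Of 12 genes known as outputs of the clock in kidney or other tissues, 2 were called higher and 7 lower in Ade against Con, with a median log2 fold change of -0.46. Over all genes 35.1% were higher and 32.2% lower in that comparison. Lower were Por (-1.18), the electron donor of cytochrome P450 enzymes, Slc9a3 (-1.54), the sodium-proton exchanger of the proximal tubule, Scnn1a (-0.54), the alpha subunit of the epithelial sodium channel, Nampt (-0.70), the rate-limiting enzyme of NAD salvage, Usp2 (-0.51), a deubiquitinase, and Cys1 (-0.41) and Lonrf3 (-1.21). Higher were Dtx4 (1.90) and Tspan4 (0.65), and Wee1, Alas1 and Leo1 were not called. In Ade + IMC against Con 2 were higher and 6 lower, beside 63.2% of all genes called in either direction, with Usp2 not called (-0.23, adjusted p = 0.188 by edgeR). Slc9a3 and Scnn1a are also markers of tubule segments whose other markers were lower, as given further on.

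Within each group the kidneys differed in the balance of the arms. For each kidney the mean log2 CPM of the 7 repressor and output genes and of the 3 activators was taken relative to the Con mean. Their difference, the arm difference, is above 0 where the repressor and output arm stands higher against Con than the activator arm does. In Ade both arms had means below Con, -0.26 for the repressor and output arm and -0.21 for the activators, which their difference does not show. It was 0.67, 0.26, 0.10, -0.98 and -0.05 in Con mice 201, 202, 301, 302 and 403. In Ade it was 0.40, 0.25 and 0.23 in mice 207, 208 and 308 and -0.37, -0.26 and -0.55 in mice 407, 408 and 409. In Ade + IMC it was 0.81, 0.42, 0.48, 0.70 and 0.76 in mice 211, 212, 310, 311 and 412 and -0.69 in mouse 410. Kidneys of both kinds were present in each group, 2 of 5 below 0 in Con, 3 of 6 in Ade and 1 of 6 in Ade + IMC. The means were 0.00 ± 0.61 (SD, n = 5) in Con, -0.05 ± 0.39 (SD, n = 6) in Ade and 0.41 ± 0.56 (SD, n = 6) in Ade + IMC. In Con and Ade + IMC the SD was wider than any difference between these means. Every Ade + IMC kidney but mouse 410 lay above all Ade kidneys, in the contrast of the selection. When each mouse was left out, the mean difference ran from 0.17 to 0.64 for Ade + IMC minus Con. It ran from -0.30 to 0.12 for Ade minus Con.

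**Figure D3:**
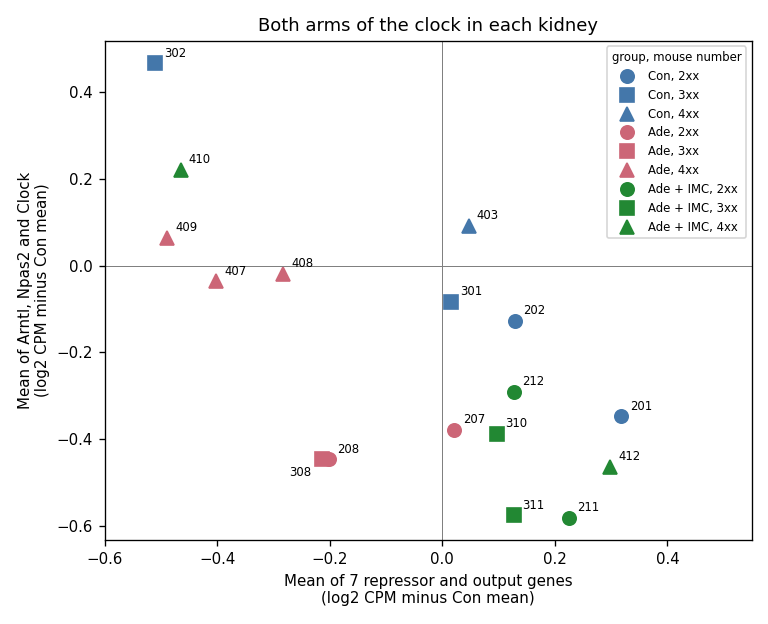
Mean level of the 7 repressor and output genes (x axis) and of Arntl, Npas2 and Clock (y axis) in each kidney, both as log2 CPM minus the Con mean, with mouse numbers beside the points. Con mouse 302 and Ade + IMC mouse 410 lie at the upper left and Con mouse 201 and Ade + IMC mice 211 and 412 at the lower right, so that the kidneys run from high activators to high repressor genes within groups.

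Con mouse 302 and Ade + IMC mouse 410 stood at the far end. Con mouse 302 had the lowest Nr1d1, Dbp, Tef, Per1, Per2 and Per3 and the highest Arntl, Npas2 and Clock of the 5 Con kidneys. Mouse 410 had the lowest Nr1d1, Nr1d2, Dbp, Tef, Per2 and Per3 and the highest Arntl and Npas2 of the 6 Ade + IMC kidneys. At the other end, Con mouse 201 had the highest level of Nr1d1, Nr1d2, Dbp, Tef, Per2 and Per3 and the lowest of Arntl and Npas2 in its group. These 3 kidneys came from Con and Ade + IMC, and their mouse numbers had 3 different first digits.

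In Ade the arm difference followed the leading digit of the mouse numbers, a label of unstated meaning. The 3 kidneys numbered 2 or 3 were above 0 and the 3 numbered 4 below 0, and Dbp showed the same division, 40.5 to 49.6 against 22.1 to 25.1 CPM, as did Arntl in the opposite sense, 15.4 to 18.0 against 22.5 to 24.4 CPM. Per2, Per3 and Npas2 divided likewise, so that 5 of the 10 clock genes did, beside 22.4% of all genes with a mean of at least 5 CPM. The division was read from the arm difference, which is made of these 10 genes, and the 5 genes varied together. This count is therefore no separate evidence. Hlf divided in the sense opposite to Dbp, its PAR bZIP relative, with 28.7 to 41.1 CPM in the kidneys numbered 2 or 3 and 61.3 to 88.1 CPM in those numbered 4. The groups held different shares of these digits, 2, 2 and 1 mice of digits 2, 3 and 4 in Con, 2, 1 and 3 in Ade and 2, 2 and 2 in Ade + IMC. Mice 410 and 412 of digit 4 lay at opposite ends of Ade + IMC, with Dbp at 19.8 and 61.6 CPM. Within digits the difference of Dbp between Ade and Con was -0.03, 0.85 and -0.42 on the log2 scale, and the pooled value of -0.04 was close to that of digit 2 only. With the first digit as a block in the fit no clock gene gained or lost its call against Con.

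The called differences kept their direction within the digits. Within digits 2, 3 and 4 the difference between Ade and Con on the log2 scale was -0.76, -0.59 and -0.78 for Nr1d1, -0.74, -0.64 and -0.57 for Nr1d2, and -1.14, -0.83 and -0.98 for Tef. For Per2 it was 0.37, 0.97 and 0.18. Between Ade + IMC and Con it was -0.33, -0.19 and -0.18 for Nr1d1, -0.70, -0.23 and -0.34 for Nr1d2, -0.53, -0.48 and -0.72 for Tef and 0.60, 0.90 and 0.38 for Per2. Clock, called in both comparisons, was close to 0 in digit 4, at -0.03 in Ade and -0.04 in Ade + IMC against Con. Only Per1, called in Ade + IMC, changed sign in digit 4, as given above. Digit 4 of Con and digit 3 of Ade held 1 mouse each.

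**Figure D4:**
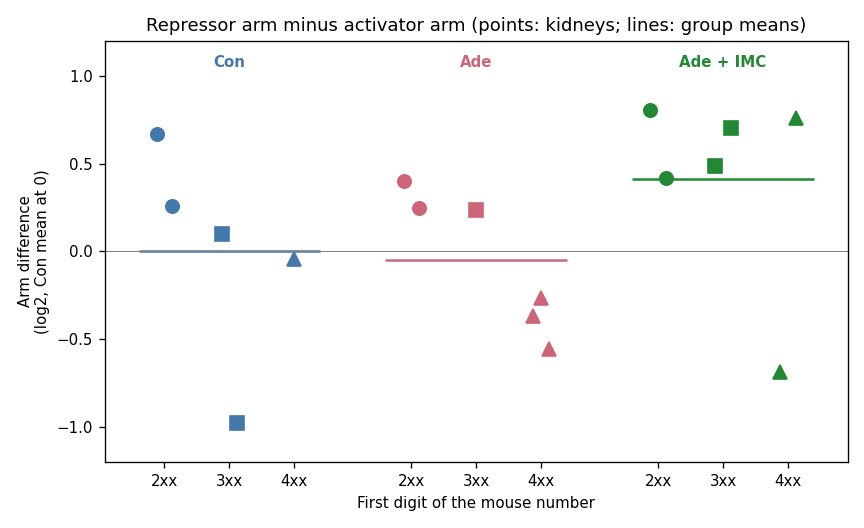
Arm difference of each kidney (y axis, mean log2 CPM of the repressor and output arm minus that of the activator arm, Con mean at 0) by group and first digit of the mouse number (x axis). Points are kidneys and lines are group means; in Ade the 3 kidneys numbered 4 lie below 0 at -0.55 to -0.26, and in Ade + IMC mouse 410 lies at -0.69 and the other 5 at 0.42 to 0.81.

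The genes varied together from kidney to kidney inside the groups. Over the deviations of the 17 kidneys from their group means, all 24 pairs within an arm had a positive Pearson r and 20 of the 21 pairs across the arms a negative one. The median r was 0.63 within the repressor and output arm, 0.34 among the 3 activator pairs and -0.59 across the arms. The closest pair was Dbp with Per3 (r = 0.94), and the most opposed were Dbp with Arntl (r = -0.89) and Per3 with Arntl (r = -0.85). Among the 12359 genes with a mean of at least 5 CPM, Dbp and Per3 ranked 1 and 2 in size of r to Arntl, and Npas2 ranked 1 to Nr1d1 (r = -0.79) with Dbp ranked 4 (r = 0.74). These points share libraries and the TMM scale, and the values are descriptions. The central 90% of all genes lay between -0.37 and 0.37 for Nr1d1 and between -0.46 and 0.49 for Arntl.

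Per1 and Clock were the least closely tied to the other genes. Per1 had r = 0.17 to Nr1d1, 0.01 to Arntl and 0.08 to Per3, and Clock r = -0.23 to Nr1d1, 0.00 to Nr1d2 and 0.34 to Arntl. Clock was more opposed to Dbp (r = -0.54), Per3 (-0.42) and Per2 (-0.37), and Per1 was closest to Tef (0.28) within its arm. Both lay within the central 90% of all genes in their relation to Nr1d1 and to Arntl. The activator arm as a mean therefore rested on 2 genes that moved together, Arntl and Npas2 (r = 0.64), and 1 that followed them loosely.

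**Figure D5:**
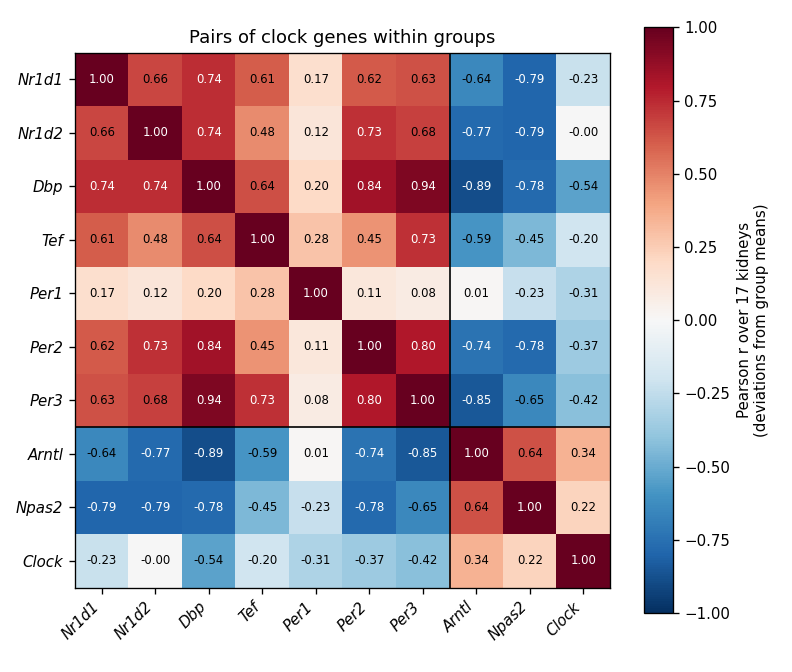
Pearson r of each pair of clock genes over the deviations of 17 kidneys from their group means (log2 CPM), with black lines between the arms. Red within the arms and blue across them mark positive and negative values; the rows of Per1 and Clock are the palest.

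Inside single groups of 6 kidneys 8 relations were computed, each with an exact permutation test, two-sided. In Ade, r was -0.93 for Dbp with Arntl (rho -0.83, exact permutation p = 0.0528 and 0.0583), -0.84 for Per3 with Arntl (rho -0.66, exact permutation p = 0.0722 and 0.175), -0.50 for Nr1d1 with Arntl (rho -0.31, exact permutation p = 0.317 and 0.564) and 0.62 for Nr1d1 with Dbp (rho 0.60, exact permutation p = 0.242 and 0.242). In Ade + IMC, r was -0.89 for Dbp with Arntl (rho -0.77, exact permutation p = 0.0972 and 0.103), -0.85 for Per3 with Arntl (rho -0.77, exact permutation p = 0.0556 and 0.103), -0.67 for Nr1d1 with Arntl (rho -0.49, exact permutation p = 0.150 and 0.356) and 0.80 for Nr1d1 with Dbp (rho 0.83, exact permutation p = 0.0167 and 0.0583). After Benjamini-Hochberg adjustment over the 8 relations the smallest exact permutation p was 0.133 for r and 0.206 for rho, so none passed 0.05. Without the 2 kidneys farthest from the median, r stayed at -0.997 and -0.95 for Dbp and Per3 with Arntl in Ade and at 0.72 for Nr1d1 with Dbp in Ade + IMC. The other 5 relations changed sign and rested on those kidneys, mouse 410 among them for each such relation in Ade + IMC.

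Outside the 10 genes, those most like Nr1d1 over the same 17 deviations were Zcchc3 (r = 0.76), Plekhn1 (0.71), Large2 (0.70), Bcl2l12 (0.69), Elmo3 (0.68) and Mphosph6 (0.67), and those most opposed Mmp2 (-0.74), Pld1 (-0.73), Pros1 (-0.70), Plrg1 (-0.69), Neu3 (-0.68) and Ppp2r5c (-0.67). For Arntl the highest were Nostrin (0.85), Svep1 (0.84), Astn2 (0.82), Dennd5a (0.81), Sema3e (0.81) and Lgalsl (0.80) and the lowest Sik1 (-0.84), Atg4a (-0.81), Ring1 (-0.80), Angel2 (-0.80), Trmu (-0.78) and Strada (-0.78). Sik1, a salt-inducible kinase, and Mmp2, a matrix metalloproteinase, thus headed the genes opposed to Arntl and to Nr1d1.

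The clock genes differed widely in how much they varied between kidneys of a group. The SD of log2 CPM within groups was 0.60 for Dbp, larger than in 94.1% of 14610 genes, 0.47 for Npas2 (87.2%), 0.42 for Per1 (83.2%) and 0.36 for Per3 (76.2%). It was 0.32 for Arntl, 0.28 for Per2, 0.28 for Clock, 0.25 for Nr1d2, 0.20 for Tef and 0.17 for Nr1d1, of which the last was larger than in 30.8% of genes. The median was 0.30 over the 10 clock genes and 0.23 over all genes tested. The SE of the log2 fold change in Ade against Con was accordingly 0.28 for Dbp and 0.10 for Nr1d1.

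Per kilobase of exon (GENCODE vM21, all exons of a gene merged), the levels in Con ran in the order Nr1d1 (40.3 CPM per kb), Tef (35.0), Nr1d2 (20.7), Dbp (11.9), Per1 (9.18), Clock (5.47), Per3 (4.77), Per2 (3.62), Arntl (2.85) and Npas2 (2.66). In Ade the order began with Nr1d1 (24.1), Tef (17.9) and Nr1d2 (12.8) and Per1 (12.04) lay above Dbp (11.4). In Ade + IMC Dbp (16.7) lay above Nr1d2 (15.3). Over the Con kidneys only 2 pairs of neighbours had ranges that did not meet, Tef with Nr1d2 (lowest 26.6 against highest 26.2 CPM per kb) and Nr1d2 with Dbp (lowest 17.9 against highest 16.4), and all other neighbours overlapped. Nr1d1 shared 263 of its 3077 exonic bases with Thra, the thyroid hormone receptor gene on the opposite strand, and Dbp shared 539 of 2993 with Sphk2, also on the opposite strand. The use of strand in counting is not given in the sources used here, so reads from those bases cannot be assigned. Thra ran from 97.2 to 113 CPM in Con, 71.3 to 96.4 in Ade and 82.8 to 120 in Ade + IMC, with a log2 fold change of -0.24 (SE 0.08) in Ade and -0.08 (SE 0.09) in Ade + IMC against Con, smaller than those of Nr1d1. Sphk2 ran from 63.5 to 82.4 CPM in Con, 42.2 to 53.6 in Ade and 47.4 to 54.4 in Ade + IMC. Tef and Arntl shared 193 and 33 exonic bases with the predicted genes Gm17597 and Gm45355 on the opposite strand, and the other 6 genes shared none.

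Cell type markers and stimulus genes differed between the groups, beside 67.3% of all genes called in Ade and 63.2% in Ade + IMC. All 7 proximal tubule markers were lower in Ade and in Ade + IMC than in Con, with summed levels of 10874 to 15620 CPM in Con, 1811 to 6188 in Ade and 2755 to 5309 in Ade + IMC, and so were all 5 collecting duct markers tested and 3 of 4 distal convoluted tubule markers in each. All 5 fibroblast markers (250.4 to 309.7, 2005 to 2507 and 1490 to 2218 CPM summed) and all 5 macrophage markers (165 to 205, 1065 to 1736 and 966 to 1622 CPM) were higher. All 4 T cell and all 3 B cell markers were higher too. In bulk kidney fewer cells of a type and less RNA per cell cannot be told apart, and the part of these shifts in the lower Nr1d1, Nr1d2, Tef and Clock was not tested. Within Ade the summed proximal tubule level was 1811, 1867 and 2420 CPM in mice 207, 208 and 308 and 6188, 3758 and 3233 CPM in mice 407, 408 and 409, the same division as that of Dbp and Arntl. Of the 16 lists of cell type, injury and stimulus genes 9 divided so in sum, beside 22.4% of single genes with a mean of at least 5 CPM. Sums of several genes and single genes are unlike units, and the division was picked from these data. The kidneys numbered 2 or 3 were lower in thick ascending limb (2731 to 5111 against 5272 to 6408 CPM), distal convoluted tubule (921 to 1173 against 1393 to 1993 CPM), podocyte (268 to 503 against 841 to 931 CPM) and endothelial markers and in fasting response genes. They were higher in tubular injury markers (476 to 853 against 200.1 to 407 CPM), immediate early genes (493 to 554 against 274 to 422 CPM) and fat cell markers. The part of these values in the division of the clock genes was not tested. In Con the highest proximal tubule sums were those of mice 302 and 201, at 15620 and 14874 CPM, which lay at opposite ends of the arm difference. In Ade + IMC these sums were 5309, 5187 and 4681 CPM in mice 412, 310 and 410, with arm differences of 0.76, 0.48 and -0.69. Mice 211, 212 and 311 had 2755 to 3348 CPM, with arm differences of 0.42 to 0.81.

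All 9 immediate early genes, Jun and Junb among them, were higher in both groups (118.7 to 164 CPM summed in Con, 274 to 554 in Ade and 282 to 405 in Ade + IMC), and of 10 glucocorticoid response genes 5 were higher and 2 lower in Ade and 7 higher and 2 lower in Ade + IMC, beside 67.3% and 63.2% of all genes called. Per1 is known to answer both kinds of signal, and their part in its level was not tested. Of 5 fasting response genes tested 2 were higher and 3 lower in Ade and 2 higher and 2 lower in Ade + IMC. The 4 fat cell markers in the tables were uneven, 0.41 to 12.6 CPM summed in Con, 0.41 to 143 in Ade with mouse 207 highest, and 0.41 to 557 in Ade + IMC with mouse 212 highest, followed by mouse 211 at 169 and mouse 410 at 79.4, with Lep at or near 0. The defining adrenal cortex genes Cyp11b1 and Cyp11b2 were at or near 0 in all groups.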

How the data were processed

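RNA was measured in whole kidneys by RNA-seq from Illumina TruSeq libraries. For Con and Ade mice the authors deposited raw gene counts, and for Ade and Ade + IMC mice a signal, each gene's count over DESeq2's size factor. The study's methods name STAR with mm10 and DESeq2, while the submitters' processing notes list Trimmomatic 0.39, FastQC 0.11.8, Bowtie2 2.2.5, HTSeq 0.9.1 and DESeq2 without their roles. Neither the annotation release nor strand use in counting is given in the sources used here. A deposited table of the authors' own fold changes and p-values was used for its gene names only, which paired 20339 of the 20634 genes with a symbol. Each normalized value was a whole multiple of the smallest value above 0 of its mouse (100% of values above 0, tolerance 0.001). These multiples were taken as reads, in the Ade mice 0 of them disagreed with the raw counts, and the Ade + IMC reads used in CPM and by edgeR were recovered in this way. There were 0 value columns of no sample.

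Groups came from the treatment label of each sample. Ade and Ade + IMC were each compared with Con by edgeR 4.0.16 (TMM, filterByExpr, quasi-likelihood test) in R 4.3.3 over the whole table, and the SE was taken as the fold change over the root of F. Ade + IMC and Ade were described, with no test, by limma-trend (limma 3.58.1) on the log2 scale of normalized count + 1, since the genes were selected on this contrast; genes whose normalized count averaged under 10 were left out. That scale understates changes of low genes. Log2 CPM of single kidneys used a prior count of 2. Pairs of genes were compared within groups by exact permutation tests. The edgeR step and the pair test were tested on simulated data. DESeq2 1.42.0, other scalings, filters, thresholds and sample sets and blocks on the leading digit of the mouse number, alone or with the serial number of the title, were alternatives. The members, the gene lists and the rule for named genes were chosen with earlier results of these data known. Named were the 10 genes, the other clock and clock output genes called in Ade against Con, the 2 members with the highest mean of every other list, and the 6 genes with the highest and lowest r to Nr1d1 and Arntl. Ciart, Bhlhe40, Wee1, Alas1 and Leo1 are named as the genes not called, and single mice, Thra, Sphk2 and members of the glucocorticoid, fasting, fat and adrenal lists were picked once their values were known. A few genes of the lists are not reported here. Loci and exon lengths came from GENCODE vM21 (GRCm38, the mm10 build).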

Additional observations from a re-analysis of the deposited data

Results flagged for a closer look

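A kidney was set apart where its gap to the nearest other kidney of its group, over the range of the group, passed Dixon's critical value for a group of that size. Of 33 groups of values 5 passed, where chance gives about 1 in 20. In Ade + IMC, mouse 410 had Dbp at 19.8 CPM beside 50.2 to 61.6 CPM in the other 5 kidneys, Arntl at 29.2 CPM beside 14.2 to 19.7 CPM, and an arm difference of -0.69 beside 0.42 to 0.81. Its neighbour in number and group, mouse 412, had an arm difference of 0.76. Mouse 410 also had the highest sums of podocyte markers, 1345 CPM beside 615 to 865 CPM, and of endothelial markers, 582 CPM beside 284 to 506 CPM, and their part in its clock gene levels was not tested. In the same group mouse 311 had Per1 at 111 CPM beside 60.5 to 72.2 CPM. In Ade, mouse 207 had Nr1d2 at 84.1 CPM beside 61.4 to 69.8 CPM. The values of Con mouse 302 did not pass it, although its arm difference was -0.98 beside -0.05 to 0.67 in the other Con kidneys.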

How the results depend on the processing

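Against Con, the count of called clock genes was 5 in Ade under each alternative for the whole group, and 5 or 6 in Ade + IMC (5 with upper-quartile scaling, library totals alone or adjusted p below 0.05). Leaving out each mouse gave 5 to 6 and 5 to 8 genes, and 7 to 8 of the 10 genes were higher in Ade + IMC than in Ade. Upper-quartile scaling turned Dbp and Arntl in Ade to 0.0257 and 0.00458 on the log2 scale. Library totals alone turned Dbp, Per3, Arntl and Npas2 in Ade to 0.26, 0.0711, 0.24 and 0.21, and Nr1d1 and Arntl in Ade + IMC to 0.0154 and 0.0858. The first digit as a block turned Dbp in Ade to 0.0800. None of these values was called. Leaving out each mouse turned Dbp (-0.23 to 0.10), Arntl (-0.16 to 0.0356) and Npas2 (-0.27 to 0.10) in Ade and Per3 (-0.11 to 0.15) in Ade + IMC. Without the 2 kidneys farthest from the median, r changed sign for Nr1d1 with Arntl (0.52) and Nr1d1 with Dbp (-0.0681) in Ade and for Nr1d1 (0.58), Dbp (0.17) and Per3 (0.46) with Arntl in Ade + IMC. The cause was not tested. The split of all genes called higher and lower was 5135 and 4706 in Ade and 4504 and 4715 in Ade + IMC. It became 7990 and 2497 and 7531 and 2247 with library totals alone and 5617 and 4173 and 5173 and 3873 with upper-quartile scaling. The titles also end in serial numbers that recur across the groups within a first digit, with no stated meaning, which gives 4 pairs for each pair of groups. Over genes with a mean of at least 5 CPM the deviations of paired kidneys from their group means had r of -0.29 to 0.22 between Con and Ade, -0.22 to 0.32 between Con and Ade + IMC and -0.11 to 0.52 between the adenine-fed groups, over 0.1 in 2 of the 4 pairs each. The highest were 0.48 for mice 208 and 211 and 0.52 for mice 308 and 311. Kidneys of the same digit with other serial numbers were not compared, so these values do not settle whether the pairing matters. The main fits left it out. With digit and serial number as a replicate block, an alternative chosen after seeing the data in which only the paired kidneys bear on the difference and mouse 410 does not in Ade + IMC against Con, 5 and 6 clock genes were called. In Ade the called genes were Nr1d1, Nr1d2, Tef, Per2 and Clock, as without the block, and Dbp turned to 0.24, not called. In Ade + IMC the calls of Nr1d1 (-0.15), Nr1d2 (-0.21) and Per1 (0.61) were lost and those of Dbp (0.84), Arntl (-0.48) and Npas2 (-0.78) gained. Groups of 5 and 6 kidneys of unknown hour of collection limit each value above, most of all Dbp, Npas2 and Per1 with their wide spread.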

Other observations

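Glucocorticoid response genes, read because Per1 shares their signal, were called in both directions. Of 10 tested in Ade against Con, Fkbp5, Tsc22d3, Cdkn1a, Mt1 and Mt2 were higher and Klf9 and Errfi1 lower, beside 35.1% of all genes higher and 32.2% lower. The abundant members of the list were the lower ones, with mean levels of Errfi1 of 624, 263 and 273 CPM and of Klf9, itself a clock-linked factor, of 189, 116 and 132 CPM in Con, Ade and Ade + IMC. The summed level of the list ran from 752 to 1042 CPM in Ade and from 1021 to 1296 CPM in Con, while its median log2 fold change was 0.42. Of the fasting response genes, Cpt1a had mean levels of 704, 363 and 397 CPM and Plin2 of 79.2, 131 and 114 CPM, and Fgf21 was at or near 0 in each group.

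Of the remaining lists, the means in Con, Ade and Ade + IMC were 43.0, 137 and 104 CPM for Jun and 19.6, 92.5 and 73.3 CPM for Junb. Thick ascending limb markers (1 of 4 higher and 2 lower in Ade, 0 higher and 2 lower in Ade + IMC against Con) were led by Umod and Slc12a1, podocyte markers (1 of 4 higher in each) by Podxl and Synpo, and endothelial markers (2 of 4 lower in Ade, 1 higher and 1 lower in Ade + IMC) by Pecam1 and Emcn. Over all genes 67.3% were called in Ade and 63.2% in Ade + IMC. The members with the highest means were Slc34a1 and Lrp2 for the proximal tubule, Slc12a3 and Calb1 for the distal convoluted tubule, Atp6v1b1 and Aqp2 for the collecting duct, Col3a1 and Col1a1 for fibroblasts, Lyz2 and C1qa for macrophages, Cd3g and Cd3e for T cells, Cd79b and Cd79a for B cells, Cfd and Cidec for fat cells and Star and Mc2r for the adrenal cortex. The injury markers Lcn2 and Havcr1 were both higher than in Con, with summed levels of 1.69 to 5.15 CPM in Con, 200.1 to 853 CPM in Ade and 138 to 551 CPM in Ade + IMC.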
